A study of Mus musculus with 22 samples.

Results

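Genes of Ras signalling, 8 of the 39056 counted, were followed through the 22 libraries of the study: the GTPases Hras and Nras, the Ras-related GTPases Rasd1 and Rasd2, and the exchange factors Rasgrf1, Rasgrf2, Rasgrp1 and Rasgrp2. The genes were chosen by name, with earlier results on these libraries known, and Rasd1 was also picked by the study itself for its differences between the EtOH and EtOH + ABT-888 groups in TRAP. Differences of the treated groups from Control are therefore given as a description. Which of them passed a threshold on the p-value is stated, but the p-values of the 8 genes are not printed and the calls are not independent evidence. All 8 genes passed the filter on low counts, which kept 14072 genes. Their positions in the mouse genome mm10 are chr11:59963181-59964944 for Rasd1 (minus strand), chr8:75213944-75224113 for Rasd2 (plus), chr7:141189105-141194005 for Hras (minus), chr3:103058285-103067914 for Nras (plus), chr9:89909908-90026977 for Rasgrf1 (plus), chr13:91880400-92131656 for Rasgrf2 (minus), chr2:117279993-117343001 for Rasgrp1 (minus) and chr19:6399340-6415216 for Rasgrp2 (plus). Rasgrp2 shares 265 exon bases with Gm14965 on the opposite strand, and the strand setting of the counting is not given in the sources used here, so its count may hold reads of that gene.

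The mice were male transgenic animals of 8 to 12 weeks. In all of them the tetracycline transactivator, driven by the CaMKIIα promoter, switched on EGFP-Rpl10a, a ribosomal protein with a fluorescent tag, so the Control mice carry the transgenes too. Saline (Control, n = 3 mice) or EtOH at 2 g/kg per day (n = 4) was injected i.p. for 4 days with 2 injections per day. A further 4 mice (EtOH + ABT-888) got the same EtOH, and on the day of the last injections also 25 mg/kg of ABT-888, an inhibitor of the PARP enzymes, which attach ADP-ribose to proteins. No group had ABT-888 without EtOH. The prefrontal cortex (PFC) was taken 2 h after the last injection. Each mouse gave a TRAP library, from RNA pulled down with the tagged ribosomes, and a total-RNA library, from a part of the lysate set aside beforehand. TRAP libraries held between 6570957 and 22002618 counted reads and total-RNA libraries between 22132534 and 32421392. The smallest library was the TRAP library of mouse 6 in the EtOH + ABT-888 group.

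The markers of cell types, with levels summed as CPM (counts scaled to a common library size with TMM factors), did not all follow the labels. Counts of markers called between the pools of the Control mice stand beside 29.5% of all genes called higher in TRAP and 30.4% called lower. The summed level of 6 markers of excitatory neurons lay between 2207 and 3269 CPM in TRAP and between 3039.8 and 4125 CPM in total-RNA, and in the Control mice 5 of the 6 were lower in TRAP by the quasi-likelihood test of edgeR, with p-values adjusted after Benjamini and Hochberg over all genes tested. Camk2a, the gene whose promoter drives the tag, did not pass that test, with a log2 fold change of -0.17 in TRAP against total-RNA and an adjusted p-value of 0.203. The summed level of 9 markers of striatal projection neurons, among them Drd1, Drd2, Adora2a and Penk, lay between 12972 and 15952 CPM in TRAP and between 1418 and 2739.9 CPM in total-RNA, and 9 of 9 were higher in TRAP in the Control mice. In the same mice markers of astrocytes, oligodendrocytes, microglia and vascular cells were lower in TRAP, 6 of 6 in each of these lists, as were 3 of 3 markers of oligodendrocyte precursors. Of 6 markers of inhibitory neurons, 3 were higher in TRAP and 1 was lower.

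Ras GTPases are switches. They are active with GTP bound, at the inner face of the cell membrane, and signal to kinases such as Raf and PI3K. Guanine nucleotide exchange factors switch them on by letting GTP replace GDP, and GTPase-activating proteins switch them off. In neurons this cycle links calcium entry and neurotransmitter receptors to the ERK kinases. Hras and Nras are classical Ras proteins. Rasd1, named for its induction by the glucocorticoid dexamethasone, and Rasd2, also called Rhes and known for its high level in the striatum, are longer relatives that modulate G protein signalling. Rasgrf1 and Rasgrf2 are exchange factors that respond to calcium through calmodulin, whereas Rasgrp1 and Rasgrp2 respond to diacylglycerol and calcium, Rasgrp1 acting on Ras and Rasgrp2 mainly on Rap.

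The 4 GTPases end in a CAAX box, a signal for the attachment of a lipid that brings the protein to membranes. The last 30 coding bases before the stop codon are printed below, from the GENCODE transcripts for mm10, to show what the members share and where they part. Capitals mark the 4 codons of the box, which begin with a cysteine codon in all 4 genes.
Rasd1: gctaaggacaaggagcgcTGTGTCATCAGT
Rasd2: gcccgagagagggacaagTGTAGCATCCAG
Hras: ggctgcatgagctgcaaaTGTGTGCTGTCC
Nras: ggttgtatggggctgcccTGTGTGCTGATG
These bases lie in the last coding exon, at chr11:59963813-59963842 (minus strand) for Rasd1, chr8:75222216-75222245 (plus) for Rasd2, chr7:141191351-141191380 (minus) for Hras and chr3:103063417-103063446 (plus) for Nras. In the box, Hras and Nras have the same base at 9 of 12 positions. Rasd1 has the same base as Rasd2 at 7 of 12, as Nras also at 7 and as Hras at 6, and Rasd2 shares 5 with Nras and 4 with Hras. The coding sequences of Hras and Nras are both 567 bases long, against 840 bases in Rasd1 and 798 bases in Rasd2.

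To set genes side by side, levels were divided by kb of exon, counting each base that any annotated transcript of the gene has as exon. This length can exceed that of a single transcript. For Rasgrp2 it was 12384 bases in a gene of 15877 bases, so the order of the genes depends on the annotation. On this scale Rasd2 and Rasgrp1 had the highest levels of the 8 genes in Control_TRAP, at 344 ± 59.9 and 290.1 ± 7.86 CPM per kb (mean ± SD, n = 3). In the same libraries Hras stood at 88.1 ± 5.61, Rasgrf1 at 38.5 ± 5.56, Rasgrp2 at 21.2 ± 1.52, Nras at 10.1 ± 1.14, Rasgrf2 at 5.75 ± 2.17 and Rasd1 at 2.00 ± 1.31 CPM per kb. Rasd1 had the lowest level of the 8 in both pools of the Control mice, with 1.35 ± 0.555 CPM per kb in Control_total-RNA. There Rasgrp1 came first, at 188 ± 10.2 CPM per kb, and Rasd2, at 37.8 ± 4.43, lay beside Rasgrf1, at 41.5 ± 3.32. All other levels below are normalized CPM, which are not scaled to gene length.

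**Figure D1:**
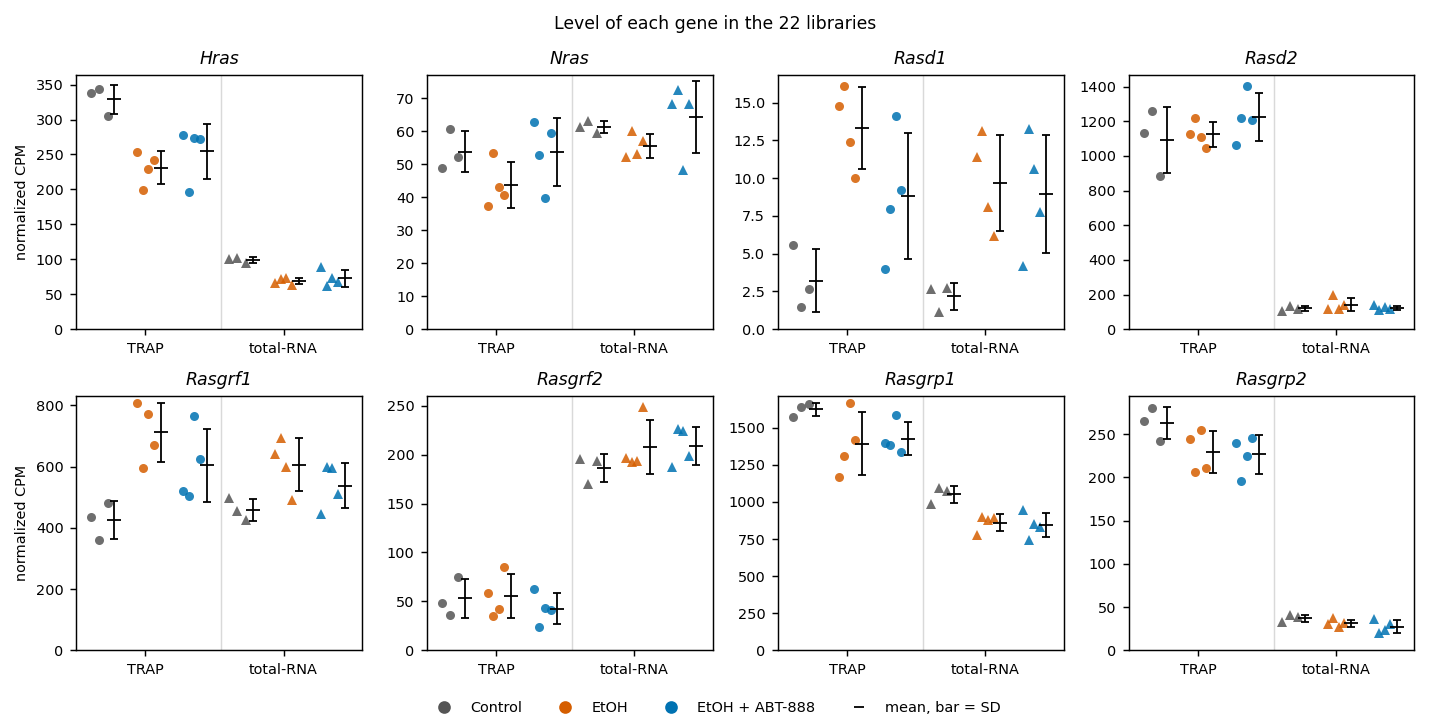
Normalized CPM of each gene in the 22 libraries, by treatment (colour) and pool (circles for TRAP, triangles for total-RNA), with the mean and SD of each group beside its points. The mean of Rasd1 is lowest in the Control group of both pools, Hras is highest in the Control libraries of each pool, and the TRAP libraries of Rasd2 and Rasgrp2 lie far above their total-RNA libraries.

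The first comparison asks which of the genes differ after EtOH in RNA held by the tagged ribosomes and in total RNA. In EtOH_TRAP against Control_TRAP, 3 of the 8 genes had an adjusted p-value under 0.05, where 5.24% of all genes tested were called. The called genes were Rasd1 and Rasgrf1, which were higher, and Hras, which was lower, beside 2.77% of all genes called higher and 2.47% called lower. In EtOH_total-RNA against Control_total-RNA the same 3 genes were called, in the same directions, where 17.6% of all genes were called, 9.04% higher and 8.6% lower. Since the genes were chosen with results of these libraries known, nothing is read from these counts. The total-RNA comparison rests on libraries of the same mice as the TRAP comparison. In total-RNA some summed cell type markers differed between Control and EtOH without overlap. Those of inhibitory neurons went from 802 to 865 CPM to 915 to 1004 CPM, and those of vascular cells from 120.4 to 141.6 CPM to 87.5 to 120.0 CPM. Microglia markers went from 225 to 238 CPM to 77.1 to 112 CPM, and the other marker lists overlapped. Their part in the values of the 8 genes was not tested.

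Among the Ras GTPases, Hras had 338, 344 and 305 CPM in the 3 Control_TRAP libraries and 253, 199, 229.9 and 243 CPM in the 4 EtOH_TRAP libraries. Each EtOH library was below each Control library. The EtOH + ABT-888_TRAP libraries had 277, 196, 273 and 272 CPM, also below each Control library, with the lowest in mouse 6, whose TRAP library was the smallest. In total-RNA, Hras had 101, 102 and 94.4 CPM in Control, 66.7, 72.3, 73.7 and 63.1 CPM in EtOH, and 88.6, 61.3, 73.9 and 67.3 CPM in EtOH + ABT-888. Here too neither treated group overlapped Control. Against Control, the log2 fold change of Hras was -0.49 (SE 0.13) in EtOH_TRAP and -0.52 (SE 0.10) in EtOH_total-RNA, and -0.36 (SE 0.15) and -0.44 (SE 0.13) with ABT-888. The call in EtOH_TRAP lay just inside the threshold. It was lost with edgeR's own filter on low counts, at -0.50, and when any single library was left out other than the EtOH_TRAP library of mouse 9, at log2 fold changes between -0.55 and -0.44. The call in EtOH_total-RNA was lost in a single fit over all 22 libraries, at -0.52. In EtOH + ABT-888_total-RNA Hras became a call without the library of mouse 3, at -0.55.

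Nras, the other classical Ras gene of the 8, was not called against Control in either pool. It had 48.8, 60.7 and 52.3 CPM in Control_TRAP, 37.4, 53.6, 43.2 and 40.7 CPM in EtOH_TRAP, and 62.9, 53.0, 39.7 and 59.6 CPM in EtOH + ABT-888_TRAP. The ranges of the 3 groups overlap. In total-RNA the group means were 61.3 ± 1.88 CPM in Control (n = 3), 55.7 ± 3.64 in EtOH (n = 4) and 64.5 ± 10.9 in EtOH + ABT-888 (n = 4). The log2 fold change of EtOH against Control was -0.28 in TRAP (95% interval -0.65 to 0.09) and -0.14 in total-RNA (-0.35 to 0.08), and neither was called.

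Rasd1 showed the largest log2 fold changes against Control of the 8 genes. Its count was low, between 26 and 52 reads in the Control_TRAP libraries and between 147 and 347 reads in the EtOH_TRAP libraries. The level was 5.55, 1.44 and 2.67 CPM in Control_TRAP and 14.8, 16.1, 12.4 and 10.0 CPM in EtOH_TRAP, so each EtOH library was above each Control library. In EtOH + ABT-888_TRAP it was 4.02 CPM in mouse 3, 7.96 in mouse 6, 14.1 in mouse 10 and 9.22 in mouse 11. Mouse 3 lay within the Control range and mouse 10 within the EtOH range. In total-RNA the same order was seen for Control, with 2.66, 1.14 and 2.72 CPM, and EtOH, with 11.4, 13.1, 8.06 and 6.16 CPM. The EtOH + ABT-888_total-RNA libraries of mice 3, 6, 10 and 11 had 4.19, 13.3, 10.6 and 7.75 CPM. All 4 lay above the Control libraries, and mouse 3 was again the lowest of its group.

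Against Control, the log2 fold change of Rasd1 was 2.12 (SE 0.40) in EtOH_TRAP and 2.16 (SE 0.32) in EtOH_total-RNA. With ABT-888 it was 1.51 (SE 0.51) in TRAP and 2.05 (SE 0.42) in total-RNA, and neither was called. The EtOH_TRAP call was lost without the Control_TRAP library of mouse 4, at 1.74, and without that of mouse 7, at 2.00. The uncalled value in EtOH + ABT-888_total-RNA became a call without the library of mouse 3, at 2.28, and without that of mouse 10, at 1.95. With all libraries it was called by exactTest and DESeq2, and without a filter on low counts Rasd1 was called with ABT-888 in both pools, at 1.5 in TRAP and 2.06 in total-RNA. All 6 groups, ordered by mean CPM, overlap with their next neighbour: EtOH_TRAP was first and Control_total-RNA last.

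The 14 transcripts known for induction by glucocorticoids, listed because Rasd1 is one such transcript, were described beside it. This list was put together with earlier results of these libraries known, so its direction is not independent evidence. In EtOH_TRAP against Control_TRAP, 6 of the 14 were called higher and 0 lower, beside 2.77% of all genes called higher, with a median log2 fold change of 0.70 beside 0.02 over all genes tested. In total-RNA 14 of 14 were called higher, beside 9.04% of all genes, and 7 in the single fit over all 22 libraries, with a median of 1.15 beside 0.00 over all genes. Fkbp5, a co-chaperone of the glucocorticoid receptor, stood at 79.7 ± 9.10 CPM in Control_TRAP and 160.1 ± 13.9 in EtOH_TRAP, and at 31.3 ± 5.05 and 105 ± 2.71 CPM in total-RNA. Mt1, a metallothionein, stood at 68.1 ± 16 CPM in Control_TRAP and 232 ± 69.7 in EtOH_TRAP, and Sgk1, a kinase, at 58.3 ± 5.67 CPM in Control_total-RNA and 214 ± 33.2 in EtOH_total-RNA. With ABT-888, 2 of the 14 were called higher than Control in TRAP and 4 in total-RNA, where 0.476% and 0.263% of all genes were called in either direction, with medians of 0.74 and 1.25.

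Summed over the 14 transcripts, the level lay between 933 and 1057 CPM in Control_TRAP and between 1361 and 1762 CPM in EtOH_TRAP. Within EtOH + ABT-888_TRAP, mouse 3 had the lowest sum, 1291 CPM, and mouse 10 the highest, 2230.4 CPM, the same mice that had the lowest and the highest Rasd1 in that group. In EtOH + ABT-888_total-RNA mouse 3 again had the lowest sum, 1067 CPM, and mouse 10 the highest, 2272 CPM, whereas Rasd1 was highest in mouse 6. In EtOH_TRAP mouse 9 was lowest in both, but the sum was highest in mouse 2 and Rasd1 in mouse 5. In EtOH_total-RNA the sum was lowest in mouse 2, 1348 CPM, and highest in mouse 8, 1898 CPM. Rasd1 was lowest there in mouse 9 and highest in mouse 5. The part of glucocorticoids in the level of Rasd1 was not tested.

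**Figure D2:**
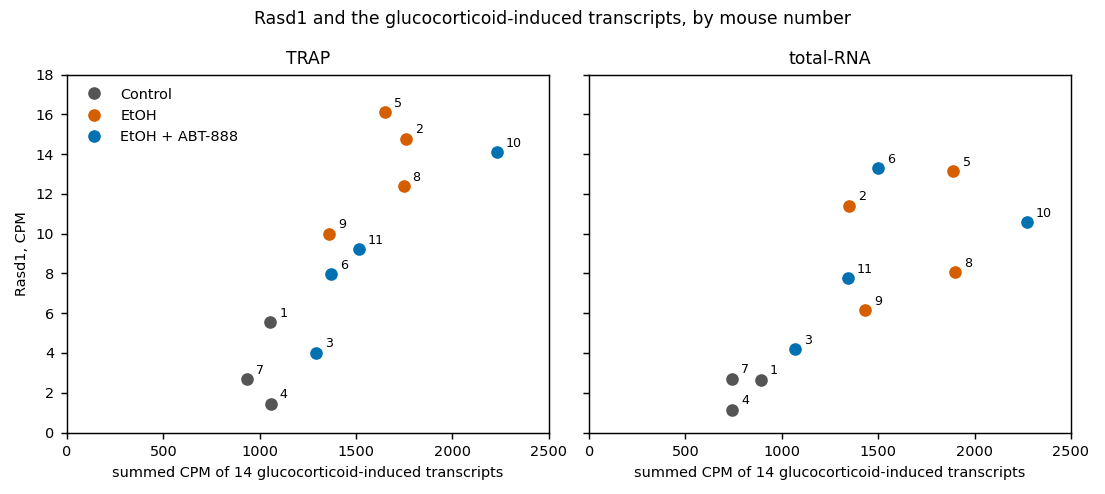
Normalized CPM of Rasd1 (vertical axis) against the summed CPM of the 14 glucocorticoid-induced transcripts (horizontal axis) in each library, with TRAP on the left, total-RNA on the right, colours for treatment and numbers for the mouse. The Control mice lie at the lower left of both panels, with sums from 741 to 1057 CPM, and of the treated mice, mouse 3 lies nearest to them.

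Rasd2, the relative of Rasd1 known from the striatum, was not called against Control in either pool. It had 1131, 1259 and 884 CPM in Control_TRAP, 1128, 1219, 1110.0 and 1044 CPM in EtOH_TRAP, and 1064, 1217, 1405 and 1208 CPM in EtOH + ABT-888_TRAP. The 3 groups overlap. In total-RNA the libraries had 107, 135 and 119 CPM in Control, 118, 195, 119 and 139 CPM in EtOH, and 139, 114, 126 and 119 CPM in EtOH + ABT-888. The highest, 195 CPM in mouse 5, came from the total-RNA library with the highest summed level of striatal markers, 2739.9 CPM. The log2 fold change of EtOH against Control was 0.06 (95% interval -0.25 to 0.38) in TRAP and 0.25 (-0.10 to 0.60) in total-RNA, and neither was called.

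Of the 13 genes listed as partners of Rasd1 and Rasd2, which include G protein subunits and the adaptor Nos1ap, 0 were called by edgeR in EtOH against Control in either pool, beside 5.24% of all genes in TRAP and 17.6% in total-RNA, with median log2 fold changes of 0.02 in TRAP and 0.06 in total-RNA. At an unadjusted p-value under 0.05, 1 passed in TRAP, Mtor, beside 3249 of all 14072 genes. In total-RNA 2 passed, Gnai3 and Slc11a2, beside 4774. DESeq2 called 0 and 1, the latter Gnai3.

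Among the exchange factors, Rasgrf1 had 436, 360.3 and 482 CPM in Control_TRAP and 809, 595, 773 and 669 CPM in EtOH_TRAP, each EtOH library above each Control library. In EtOH + ABT-888_TRAP it had 520.1, 506, 766 and 625 CPM, also above Control in each library. In total-RNA it had 498, 454 and 425 CPM in Control, 640.1, 695, 598 and 492 CPM in EtOH, and 445, 600.3, 595 and 512 CPM in EtOH + ABT-888. There mouse 9 of the EtOH group fell below the highest Control library, and the groups overlap. The log2 fold change against Control was 0.76 (SE 0.15) in EtOH_TRAP and 0.40 (SE 0.12) in EtOH_total-RNA, and 0.52 (SE 0.18) and 0.23 (SE 0.12) with ABT-888. The EtOH_TRAP call was lost without the Control library of mouse 1, at 0.77, of mouse 4, at 0.65, and of mouse 7, at 0.85. In total-RNA the call was lost in the single fit over all 22 libraries, at 0.40, and without any single library other than that of mouse 9, at values between 0.33 and 0.47.

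Rasgrf2, the closest relative of Rasgrf1 in the set, was not called against Control in either pool. Its libraries had 48.7, 35.6 and 75.0 CPM in Control_TRAP, 58.4, 35.6, 42.2 and 85.6 CPM in EtOH_TRAP, and 62.3, 24.3, 43.2 and 40.7 CPM in EtOH + ABT-888_TRAP, and the 3 groups overlap. In total-RNA it had 196, 170.2 and 194 CPM in Control, 196, 193, 193 and 249 CPM in EtOH, and 187, 226, 224 and 198 CPM in EtOH + ABT-888. The EtOH value of 249 CPM, from mouse 9, stood apart from the other 3 of its group. The log2 fold change of EtOH against Control was 0.07 (95% interval -0.57 to 0.72) in TRAP and 0.16 (-0.09 to 0.41) in total-RNA.

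Rasgrp1 had 1575, 1638 and 1660.3 CPM in Control_TRAP and 1170.0, 1310.4, 1671 and 1419 CPM in EtOH_TRAP, with mouse 8 of the EtOH group above all Control libraries. In EtOH + ABT-888_TRAP it had 1398, 1383, 1586 and 1335 CPM. In total-RNA the Control libraries had 986, 1093 and 1075 CPM, against 775, 898, 878 and 892 CPM in EtOH and 943, 745, 855 and 830.4 CPM in EtOH + ABT-888. Neither treated group overlapped Control in total-RNA. The log2 fold changes there were -0.29 (SE 0.10) for EtOH and -0.32 (SE 0.10) for EtOH + ABT-888, and -0.20 (SE 0.14) and -0.17 (SE 0.13) in TRAP. None of the 4 was called, and the EtOH_total-RNA value was called without the library of mouse 9, at -0.31, and with all libraries by edgeR's exactTest, at -0.29, and DESeq2, at -0.28.

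Rasgrp2 had 265, 279.7 and 242 CPM in Control_TRAP, 245, 206, 254 and 211 CPM in EtOH_TRAP, and 240.1, 195, 225 and 246 CPM in EtOH + ABT-888_TRAP. In total-RNA it had 32.4, 40.4 and 38.7 CPM in Control, 30.7, 37.1, 27.1 and 31.2 CPM in EtOH, and 36.4, 19.8, 23.5 and 30.2 CPM in EtOH + ABT-888. The treated groups overlap Control in both pools, and no difference was called, with log2 fold changes between -0.43 and -0.18.

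**Figure D3:**
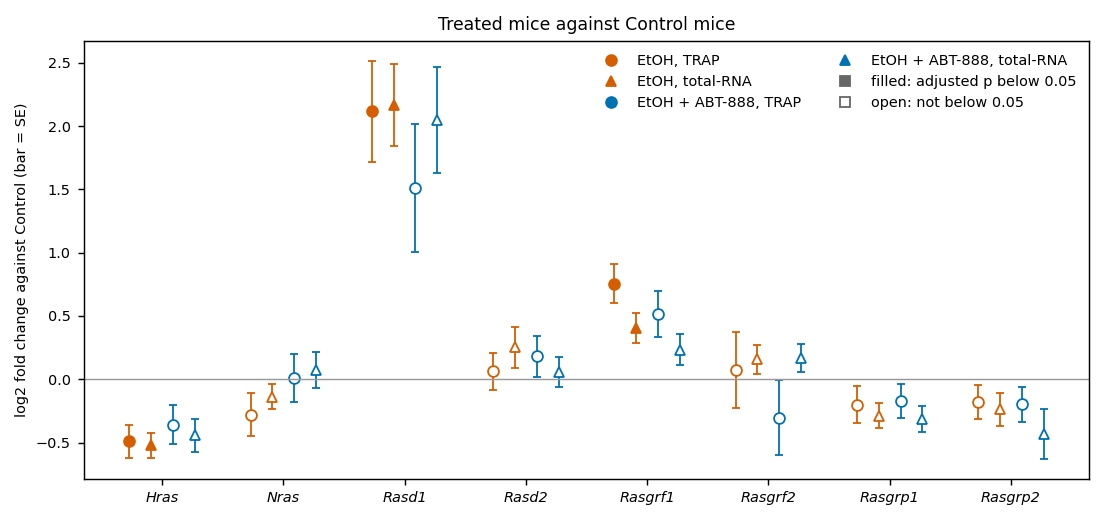
Log2 fold change of each gene against the Control mice, for EtOH and EtOH + ABT-888 in TRAP (circles) and total-RNA (triangles), with bars for the SE and filled symbols for an adjusted p-value under 0.05. The filled symbols belong to Hras (-0.49 and -0.52), Rasd1 (2.12 and 2.16) and Rasgrf1 (0.76 and 0.40) after EtOH, and no symbol of EtOH + ABT-888 is filled.

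The next comparison asks whether ABT-888 on the last day changed the effect of EtOH. Against Control, 0 of the 8 genes were called in EtOH + ABT-888_TRAP, where 0.476% of all genes were called, and 0 of 8 in EtOH + ABT-888_total-RNA, where 0.263% were called. At an unadjusted p-value under 0.05, 3 of the 8 passed in TRAP, beside 1696 of all 14072 genes, and 4 in total-RNA, beside 2243, and DESeq2 called 0 and 1, the latter Rasd1. These comparisons share the Control libraries with those of EtOH. Compared with EtOH directly, 0 of 8 were called in TRAP and 0 of 8 in total-RNA by edgeR, and no gene of the 14072 was called in either, which makes 0.0% and 0.0%. Of all genes, 136 in TRAP and 269 in total-RNA had an unadjusted p-value under 0.05, and DESeq2 called 0 and 2. None of the 8 had an unadjusted p-value under 0.05 in these 2 comparisons, and DESeq2 called 0 of 8 in both.

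The summed level of the 6 oligodendrocyte markers lay between 298 and 1402 CPM in EtOH + ABT-888_TRAP, between 295 and 682 CPM in EtOH_TRAP and between 318 and 420.4 CPM in Control_TRAP, and its part in the TRAP values of the 8 genes was not tested. For Rasd1 the log2 fold change of EtOH + ABT-888 against EtOH was -0.59 in TRAP, with a 95% interval from -1.33 to 0.15, and -0.12 in total-RNA, from -0.82 to 0.58. For Hras it was 0.13 in TRAP (-0.20 to 0.47) and 0.08 in total-RNA (-0.21 to 0.36), and for Rasgrf1 -0.24 (-0.60 to 0.13) and -0.17 (-0.46 to 0.12). In TRAP, the intervals of the other 5 genes lay between -1.01 and 0.71.

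Whether EtOH acted differently in the TRAP and total-RNA pools was tested as an interaction over all 22 libraries, in which 0 of the 8 genes were called beside 0.0213% of all genes. None of the 8 had an unadjusted p-value under 0.05, beside 685 of all 14072 genes, and DESeq2 called 0 of 8. Rasgrf1 had the largest interaction of the 8, 0.34 on the log2 scale (95% interval -0.13 to 0.80). That of Rasd1 was -0.06 (-1.37 to 1.24) and that of Hras 0.01 (-0.38 to 0.41).

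The pools themselves were compared within each treatment. The SE and p-values of these comparisons treat the TRAP and total-RNA libraries of a mouse as independent. A fit with the mouse as a replicate block is given as an alternative. TRAP over total-RNA gives the level of a transcript on the tagged ribosomes relative to its level in the tissue. In the Control mice 5 of the 8 genes were called (59.9% of all genes), 4 of them higher in TRAP (29.5% of all genes) and 1 lower (30.4%). In the EtOH mice 6 were called (50.7%), 4 higher (24.3%) and 2 lower (26.5%), and in the EtOH + ABT-888 mice 5 were called (41.0%), 4 higher (19.5%) and 1 lower (21.5%). These counts of so few genes are not read as a difference from the other genes. Fewer cells of a type and less RNA per cell cannot be told apart in these values.

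Rasd2 was higher in TRAP than in total-RNA of the same mouse by a factor of 6.25 to 11.1, with a median of 9.34 over the 11 mice. The log2 fold change was 3.17 (SE 0.14) in Control, 2.96 (SE 0.17) in EtOH and 3.30 (SE 0.14) in EtOH + ABT-888, with adjusted p-values of 6.27e-08, 9.13e-07 and 7.87e-07 in edgeR. In the EtOH + ABT-888 mice it had the smallest p-value of the 14072 genes. Rasgrp2 came close, with ratios from 5.57 to 9.86 and a median of 7.98. Its log2 fold changes were 2.80 (SE 0.11), 2.84 (SE 0.14) and 3.04 (SE 0.20), with adjusted p-values of 3.65e-08, 8.69e-07 and 2.96e-06 in edgeR, and in the EtOH mice it ranked 2 of the 14072 genes by p-value. In both genes the pools did not overlap in any treatment.

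Rasd2 and Rasgrp2 are known for high expression in striatal projection neurons, and the markers of these neurons moved with them. The summed level of the 9 striatal markers was higher in TRAP by a factor of 5.61 to 9.44, with a median of 7.16 over the 11 mice. Divided by that factor, the ratio of Rasd2 ran from 1.11 to 1.39, above 1 in 11 of 11 mice, and that of Rasgrp2 from 0.968 to 1.16, above 1 in 7 of 11. Both ratios share their mouse and library pair. The part of striatal tissue or cells in the values of Rasd2 and Rasgrp2 was not tested.

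Hras was higher in TRAP in each of the 11 mice, by a factor of 2.76 to 4.04 (median 3.34). Its log2 fold changes of 1.71 (SE 0.09), 1.73 (SE 0.12) and 1.81 (SE 0.17) in Control, EtOH and EtOH + ABT-888 had adjusted p-values of 1.15e-07, 2.77e-06 and 1.57e-05 in edgeR. Rasgrp1 was higher in TRAP in 11 of 11 mice by a smaller factor, 1.46 to 1.90 (median 1.59), with log2 fold changes of 0.61, 0.68 and 0.76 and adjusted p-values of 8.58e-05, 0.00149 and 0.000688 in edgeR.

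Rasgrf2 was the one gene of the 8 that was called lower in TRAP in all 3 treatments. Its ratio ran from 0.107 to 0.387 and was below 1 in 11 of 11 mice. The log2 fold changes were -1.83 (SE 0.21), -1.92 (SE 0.24) and -2.29 (SE 0.24) in Control, EtOH and EtOH + ABT-888, with adjusted p-values of 2.25e-05, 7.28e-05 and 3.33e-05 in edgeR. The summed markers of astrocytes, microglia, oligodendrocytes, their precursors and vascular cells were lower in TRAP as well, at 43.7 to 207 CPM against 915 to 1189 CPM for astrocytes. The mean sum of the excitatory neuron markers was also lower in TRAP in each treatment, at 2481 against 3469 CPM in Control. Those of striatal and inhibitory neurons were higher in TRAP. The part of these cell types in the value of Rasgrf2 was not tested.

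Nras had ratios from 0.711 to 0.960, below 1 in 11 of 11 mice, and was called lower in the EtOH mice, with a log2 fold change of -0.37 and an adjusted p-value of 0.0463 (edgeR). This call was lost without any of 7 of the 8 libraries, at values between -0.40 and -0.30, and was kept without the EtOH_TRAP library of mouse 5. In Control and EtOH + ABT-888 the log2 fold changes were -0.20 (95% interval -0.42 to 0.02) and -0.26 (-0.67 to 0.15). Without the Control_TRAP library of mouse 4 the Control value was -0.29 and called. Rasd1 had ratios from 0.599 to 2.09, above 1 in 8 of 11 mice, and Rasgrf1 from 0.794 to 1.36, above 1 in 7 of 11. Neither was called in any treatment. For Rasd1 in the EtOH mice the log2 fold change was 0.44 (-0.12 to 1.00), and with the mouse as a replicate block it was 0.47 with an adjusted p-value of 0.0337 (edgeR). The TRAP library of mouse 6, with the lowest ratio of Rasd1 and of Rasgrf2, was the smallest.

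**Figure D4:**
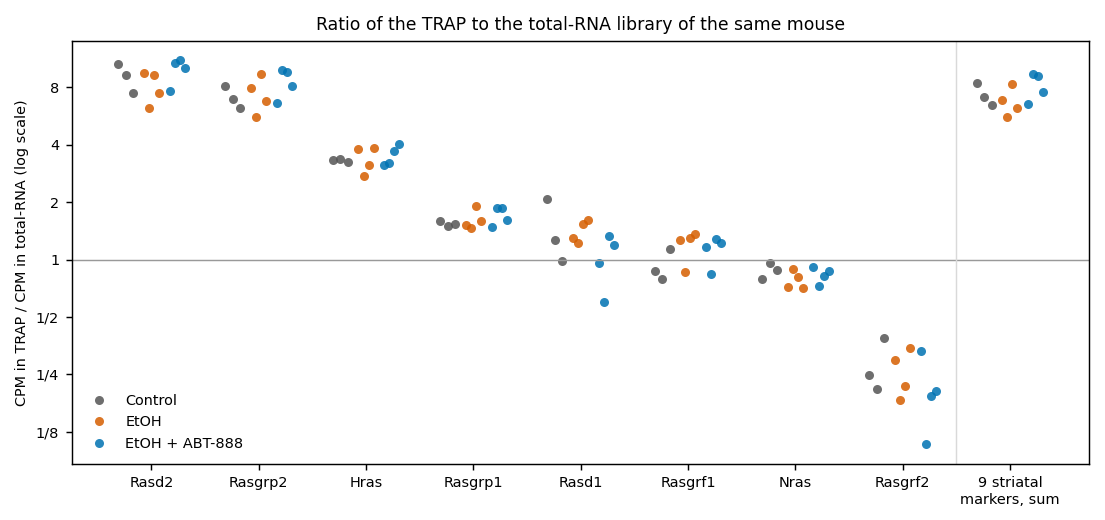
CPM in the TRAP library divided by CPM in the total-RNA library of the same mouse, on a log scale, for the 8 genes and, at the right, the sum of 9 striatal markers. Each point is 1 of the 11 mice, coloured by treatment. Rasd2 (6.25 to 11.1) and Rasgrp2 (5.57 to 9.86) lie at the height of the striatal markers (5.61 to 9.44), and Rasgrf2 (0.107 to 0.387) lies lowest.

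The other genes of the pathway, in lists also drawn up with earlier results known, were counted in the comparison of EtOH with Control. Their counts stand beside 5.24% of all genes called in TRAP (2.77% higher, 2.47% lower) and 17.6% in total-RNA (9.04% higher, 8.6% lower). In the single fit over all 22 libraries, which called 151 genes in total-RNA, the total-RNA calls went from 3 to 1 for the other Ras family GTPases, from 3 to 0 for the exchange factors, from 1 to 0 for the GTPase-activating and Spred genes and from 9 to 0 for the effectors. Of 30 other Ras family GTPases 26 were tested, and 0 were called higher and 1 lower in TRAP, against 1 higher and 2 lower in total-RNA. Diras2, a small GTPase of the brain, was the called gene in TRAP, at 472 ± 31.3 CPM in Control and 301 ± 55.5 in EtOH, and it was called lower in total-RNA too, at 490.0 ± 50.6 and 296 ± 25.6 CPM. Rala, which directs vesicles to the membrane, was called lower in total-RNA, at 81.5 ± 4.94 CPM in Control and 63.3 ± 5.84 in EtOH, and Rerg was called higher there. The median log2 fold changes of this list were -0.03 in TRAP and 0.04 in total-RNA.

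Of the 16 other exchange factors tested, 1 was called higher and 0 lower in TRAP, and 1 higher and 2 lower in total-RNA. Rgl1, an exchange factor for Ral, was the one in TRAP, at 162 ± 3.51 CPM in Control and 246 ± 23 in EtOH. In total-RNA Kndc1, a brain exchange factor, was called higher, at 80.7 ± 6.52 CPM in Control and 120.0 ± 12.3 in EtOH. Rasgrp3, a relative of Rasgrp1 and Rasgrp2, was called lower there, at 11.0 ± 0.132 and 5.02 ± 0.916 CPM, and Rapgef5 was the other gene called lower. In the same comparison 5 of the 6 microglia markers were called lower, their sum being 225 to 238 CPM in Control_total-RNA and 77.1 to 112 CPM in EtOH_total-RNA, and their part in these values was not tested.

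Of the 18 GTPase-activating and Spred genes tested, 2 were called higher and 1 lower in TRAP, and 0 higher and 1 lower in total-RNA. Spred3, a Spred-family inhibitor of Ras signalling to ERK, was called lower in both pools, from 42.1 ± 5.81 to 21.4 ± 5.12 CPM in TRAP and from 42.1 ± 2.34 to 24.6 ± 5.46 CPM in total-RNA. Rasal1, a calcium-dependent GTPase-activating protein, was called higher in TRAP, from 19.7 ± 4.18 to 43.7 ± 13.6 CPM, as was Rap1gap. Of 25 effectors, scaffolds and processing enzymes, 1 was called higher in TRAP and 0 lower, and 5 were called higher and 4 lower in total-RNA. Tiam1, an exchange factor for Rac that binds Ras, was called higher in both, from 157 ± 14 to 289.7 ± 84.4 CPM in TRAP and from 128 ± 14.4 to 205 ± 41.4 CPM in total-RNA. In total-RNA Plce1, a phospholipase that binds Ras, was called higher as well, from 15.7 ± 3.63 to 32.6 ± 4.84 CPM, and Lgals1 and Rassf2 were called lower. The microglia markers, with sums of 225 to 238 CPM in Control_total-RNA and 77.1 to 112 CPM in EtOH_total-RNA, were lower in the same comparison (5 of 6 called), and their part in the values of Lgals1 and Rassf2 was not tested.

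**Figure D5:**
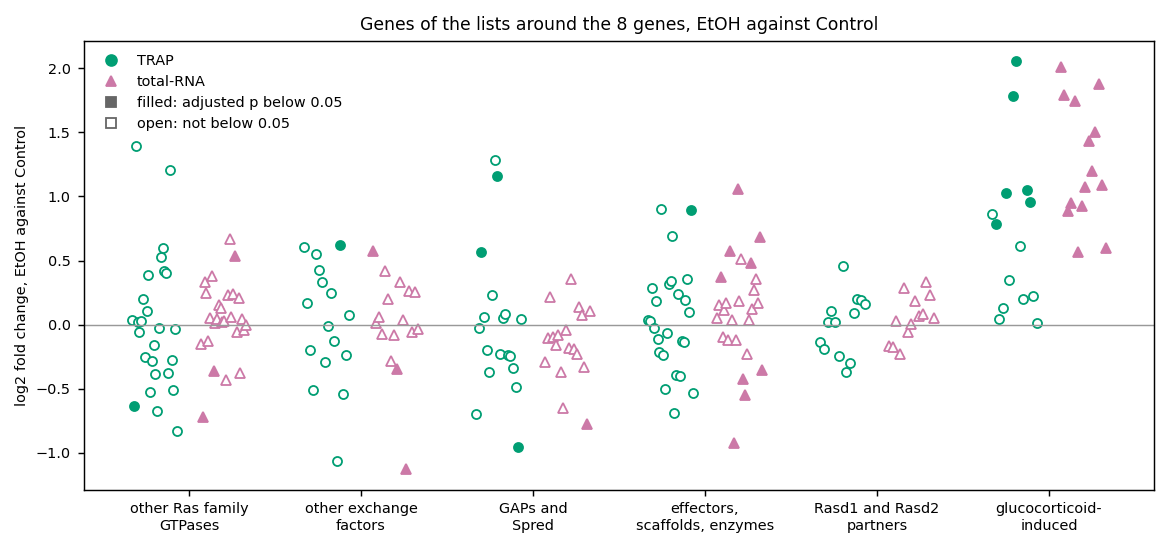
Log2 fold change of EtOH against Control for each tested gene of the 6 lists, in TRAP (circles) and total-RNA (triangles), filled where the adjusted p-value was under 0.05. The 14 glucocorticoid-induced transcripts lie above 0 in both pools, with medians of 0.70 and 1.15, and 6 are filled in TRAP against 14 in total-RNA. The medians of the 5 Ras lists lie between -0.13 and 0.12.

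Between the pools of the Control mice, where 29.5% of all genes were called higher in TRAP and 30.4% lower, the lists held calls in both directions. Of the 26 other Ras family GTPases, 10 were called higher and 8 lower in TRAP, of the 16 exchange factors 4 and 8, and of the 18 GTPase-activating and Spred genes 4 and 9. Nothing particular to the lists is read from these counts. Rem2, a small GTPase that dampens calcium channels, had a log2 fold change of 2.47 (SE 0.11) with an adjusted p-value of 6.14e-08 in edgeR.

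The genes whose level went most nearly with each of the 8 were sought over the 22 libraries by Pearson's r of log2 CPM, after the mean of each pool was taken away. The libraries come in pairs from 11 mice and share their treatment, so r is given as a description. Rasd1 was most like Inpp5k (r = 0.938), Galnt16 (0.928), Rilp (0.920), Spns2 (0.913) and Pkp2 (0.912). Inpp5k, Rilp and Spns2 lie on chromosome 11, as Rasd1 does. The share of all genes on that chromosome was not counted, so nothing is read from this. By Spearman's rank correlation 1 of these 5, Inpp5k, remained among the 5 most like Rasd1. Of the 14 genes named for the other members, 4 (Scn4b, Mfsd9, Agtpbp1 and Pde1b) were among the closest 2 by Spearman's correlation as well, whereas Tbc1d8 ranked 22 for Rasd2 and Cdh2 ranked 85 for Rasgrf2. Rasd2 was most like Scn4b (0.883), a sodium channel subunit, and Tbc1d8 (0.816). Rasgrp2 was most like Pde1b (0.917), a calmodulin-dependent phosphodiesterase, and Sh3rf2 (0.798), and Rasgrp1 like Dgkb (0.884), a diacylglycerol kinase, and Agtpbp1 (0.877). For Rasgrf1 the closest were Hist3h2ba (0.947) and Vps11 (0.928), for Rasgrf2 Hps6 (0.844) and Cdh2 (0.831), for Hras Phf24 (0.918) and Cd99l2 (0.910), and for Nras Cln8 (0.833) and Mfsd9 (0.831).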

How the data were processed

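RNA of the PFC was measured in 22 libraries of 11 mice. After depletion of ribosomal RNA and sequencing, the authors used STAR and mm10 for alignment and featureCounts with ENSEMBL annotation for quantification, and deposited the raw counts per gene, not normalized. The versions and the strand setting are not given in the sources used here. All 22 columns were used. Gene names, positions and exon lengths came from GENCODE M21, in which 38872 of the 39056 genes were found.

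Groups follow the labels, in which the mouse number joins the TRAP and total-RNA library of an animal. The deviations from the group means of the same mouse in both pools correlated at 0.102 to 0.622 over the 11 mice. Libraries of different mice were not correlated for comparison, so the pairing rests on the labels. The study's filter was applied, which removes genes whose counts sum to less than 500 or that fewer than 3 libraries detect. In R 4.3.3, edgeR 4.0.16 was used with TMM factors, the quasi-likelihood test and Benjamini-Hochberg adjustment over the 14072 genes, with a gene called at an adjusted p-value under 0.05. Each comparison was fitted to the libraries of its groups, and the interaction to all 22. The study used exactTest for its pairwise comparisons, which is tried here as an alternative. The other alternatives were DESeq2 1.42.0, RLE factors, other filters, a threshold of 0.01, a single fit over all libraries, the mouse as a replicate block, the likelihood ratio test for the interaction, Spearman's correlation, and leaving out each library. The fits were tested on simulated data. SE and 95% intervals come from the quasi-likelihood F statistic.

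The members, lists and markers were chosen with earlier results of these data known. Beside the 8 members, the genes named are, from each list, up to 2 called genes with the smallest p-value per direction in EtOH against Control of each pool and in Control_TRAP against Control_total-RNA, and the genes most like each member by Pearson's r of log2 CPM with a prior count of 1 (5 for Rasd1, 2 for the others). Not every list gene so picked is named. A result that is withheld is not reported here. The study's qRT-PCR values were not used here.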

Additional observations from a re-analysis of the deposited data

Results flagged for a closer look

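In groups of 4 mice, the gap of the highest or lowest library to its neighbour was compared with the range of the group, in 32 combinations of gene and group, of which chance sets apart about 1 in 20. It exceeded Dixon's 95% limit in 3. Hras was lowest in the EtOH + ABT-888_TRAP library of mouse 6, at 196 CPM beside 272 to 277 CPM in the other mice, with a gap of 0.930 of the range. That library was also the smallest of the 22. Rasgrf2 was highest in the EtOH_total-RNA library of mouse 9, at 249 CPM beside 193 to 196 CPM, with a gap of 0.939 of the range. Rasgrp1 was lowest in the EtOH_total-RNA library of mouse 2, at 775 CPM beside 878 to 898 CPM, with a gap of 0.838 of the range. The interaction of EtOH with pool was called for 0 of the 8 genes, with a 95% interval of -1.37 to 1.24 for Rasd1.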

How the results depend on the processing

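Of 1224 alternatives for the log2 fold changes of the 8 genes, 1125 kept their direction and their side of the threshold. The total includes the threshold of 0.01, which uses the same fit, and values that were never called. The calls of Hras in EtOH_TRAP and of Rasgrf1 in EtOH_total-RNA were each lost without any single library other than that of mouse 9. The number of the 8 genes called was 3 in EtOH_TRAP against Control_TRAP, and 0 at an adjusted p-value under 0.01 and between 0 (without the Control_TRAP library of mouse 4 or of mouse 7) and 3 when a library was left out. All genes called there were 737, and 1372 with exactTest, 1523 with DESeq2, 1191 in a single fit over all 22 libraries, 1472 without a filter and 87 under 0.01. Leaving out a library moved the number of all genes called, the base of the shares given, to 84 to 1550 in EtOH_TRAP, 878 to 3616 in EtOH_total-RNA (2482), 0 to 373 in EtOH + ABT-888_TRAP (67) and 0 to 870 in EtOH + ABT-888_total-RNA (37), each against Control. In EtOH_total-RNA it was 3, and 1 in the single fit, which called 151 genes in all against 2482, and 4 with exactTest and DESeq2, which added Rasgrp1. In EtOH + ABT-888_TRAP against Control_TRAP it was 0, and 1 without a filter, Rasd1. In EtOH + ABT-888_total-RNA it was 0, and 1 with exactTest, DESeq2 or no filter, again Rasd1, and between 0 and 2 when a library was left out (2 without mouse 3). The causes were not tested. TRAP against total-RNA gave 5 in Control and in EtOH + ABT-888 under each setting that kept all libraries. In EtOH it gave 6, and 7 in the paired fit with the replicate block, which added Rasd1 and changed no other call of the 8 genes. Nras fell out, leaving 5, in the single fit, under 0.01, without a filter and with filterByExpr. The replicate block left the interaction at 0 called and turned that of Rasd1 from -0.06 to 0.029.

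Each sign that turned belonged to an uncalled value. Nras in EtOH + ABT-888_TRAP against Control_TRAP went from 0.0073 to -0.0057 in the single fit, -0.0098 without a filter and -0.0037 with filterByExpr. Leaving out a library gave, for EtOH_TRAP against Control_TRAP, -0.070 to 0.18 for Rasd2 and -0.23 to 0.41 for Rasgrf2, and for EtOH + ABT-888_TRAP, -0.066 to 0.14 for Nras and -0.54 to 0.032 for Rasgrf2. For EtOH + ABT-888_total-RNA it gave -0.025 to 0.14 for Rasd2. Against EtOH, EtOH + ABT-888_TRAP gave -0.059 to 0.13 for Rasgrp1 and -0.057 to 0.038 for Rasgrp2, and total-RNA gave -0.37 to 0.12 for Rasd1, -0.029 to 0.15 for Hras, -0.031 to 0.11 for Rasgrf2 and -0.085 to 0.027 for Rasgrp1. TRAP against total-RNA gave -0.090 to 0.85 for Rasd1 in Control and -0.35 to 0.24 in EtOH + ABT-888. The interaction gave -0.43 to 0.53 for Rasd1, -0.037 to 0.079 for Hras, -0.39 to 0.24 for Rasgrf2, -0.033 to 0.14 for Rasgrp1 and -0.024 to 0.13 for Rasgrp2.

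The calls of the lists in EtOH against Control ranged over the settings that kept all libraries. In TRAP they ran from 0 to 3 for the other Ras family GTPases (1 as reported), 0 to 3 for the exchange factors (1), 0 to 4 for the GTPase-activating and Spred genes (3), 0 to 4 for the effectors (1) and 3 to 7 for the glucocorticoid-induced transcripts (6), lowest under 0.01. In total-RNA they ran from 1 to 3 (3), 0 to 4 (3), 0 to 4 (1), 0 to 10 (9) and 7 to 14 (14) in the same order, lowest in the single fit, and the 4 GTPase-activating and Spred genes were called without a filter. With ABT-888 against Control, the glucocorticoid-induced transcripts called ran from 0 to 5 in TRAP (2) and from 0 to 13 in total-RNA (4), lowest under 0.01 and highest without a filter. DESeq2 called 1 of the partners of Rasd1 and Rasd2 in total-RNA, against 0. Rasd1 had 26 to 52 reads in the Control_TRAP libraries, whose levels ran from 1.44 to 5.55 CPM.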
